A study of Mus musculus with 23 samples.

Results

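A set of 10 genes of myoblast adhesion, fusion and membrane repair was followed across C2C12 differentiation. They are Cdh15, Cdh2 and Jam2 (adhesion), Mymk, Adam12 and Dock1 (fusion), and Cav3, Dysf, Myof and Trim72 (membrane domains and repair). They were chosen by symbol from a list of such genes, with myomaker taken as Mymk, the name under which the tables hold it. The choice was made with earlier results of these data known. All 10 were found among 32793 gene rows, and all 10 were among the 14187 genes tested.

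C2C12 is an established line of mouse skeletal muscle myoblasts, which proliferate in medium rich in serum and fuse into multinucleated myotubes when serum is lowered. The 23 libraries came from control cells (labelled WT) and from cells labelled Runx1KO (called KO-labelled here). Day 0 stands for cells growing in 20% fetal bovine serum, and days 1, 3 and 6 for the time spent in differentiation medium, which holds 2% horse serum. The day numbers are those of the sample titles, and the series text gives a shorter time for the last point. Every group held 3 libraries except WT on day 0, of which 2 were analysed here. Whether the KO cells derive from 1 clone is not given in the sources used here, and nothing in the labels says that replicates are separate cultures. The p-values therefore measure only the spread between these libraries, which may be technical.

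Before myoblasts fuse, they leave the cell cycle, align and adhere through cadherins and immunoglobulin-type receptors. Rac-driven actin remodelling pushes the apposed membranes together, and the muscle-specific membrane proteins myomaker and myomixer then merge them. The myotube that results is covered by caveolae and carries a repair machinery of ferlins, annexins, calpains and MG53 that reseals tears in the plasma membrane, and mutations of several of these genes cause muscular dystrophies.

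Total estimated counts lay between 22197606 and 23684077 per library, so depth was nearly even. A gene's level is given as CPM, its count as a share of the library's total scaled for composition by TMM. Runx1 mRNA was higher in the KO-labelled libraries on every day (119.8 against 84.0 CPM on average on day 0 and 311 against 153 CPM on day 6). An inactivated gene can still be transcribed, and the altered site of Runx1 is not given in the sources used here, so this level over the whole gene does not by itself check the genotype. Every direction is given for the libraries as labelled. On day 1, replicate 2 of the KO-labelled libraries stood apart from its replicates: the chi-square per degree of freedom was 61.4 and 61.1 against them, where other replicate pairs reached at most 27.4. Of 8 myogenic markers (Myod1, Myf5, Des, Myog, Myh3, Acta1, Ckm and Pax7), all averaged at least 1 TPM (a level per transcript length) on days 1 to 6 in both genotypes. Endothelial and adipocyte markers summed to at most 0.65 and 0.07 TPM in any library. Epithelial markers summed to at most 2.18 TPM.

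RefSeq's promoter table (build GRCm38.p6) held 6 of the 10 genes with 7 start sites: Cdh15, Dock1, Cav3, Dysf (a pair of starts), Myof and Trim72. The 3 shown are those of the muscle caveolin and of both ferlins, since Dysf and Myof are close relatives whose levels went separate ways. Each ends just before the gene's first base and is written 5′ to 3′ on the gene's strand, and capitals mark a matched motif. Cav3 is at chr6:112459255-112459504 (plus strand), the first Dysf start at chr6:84008348-84008589 (plus strand) and Myof at chr19:38043578-38043827 (minus strand).

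Cav3: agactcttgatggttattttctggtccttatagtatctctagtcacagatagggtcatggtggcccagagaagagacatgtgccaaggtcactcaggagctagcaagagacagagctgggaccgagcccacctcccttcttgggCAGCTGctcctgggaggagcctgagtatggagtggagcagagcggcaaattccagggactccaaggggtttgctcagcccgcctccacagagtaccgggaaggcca

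Dysf: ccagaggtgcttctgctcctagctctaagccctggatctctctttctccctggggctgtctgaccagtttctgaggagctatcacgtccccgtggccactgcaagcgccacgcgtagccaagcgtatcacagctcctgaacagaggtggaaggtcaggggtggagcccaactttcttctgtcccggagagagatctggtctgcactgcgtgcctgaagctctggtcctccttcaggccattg

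Myof: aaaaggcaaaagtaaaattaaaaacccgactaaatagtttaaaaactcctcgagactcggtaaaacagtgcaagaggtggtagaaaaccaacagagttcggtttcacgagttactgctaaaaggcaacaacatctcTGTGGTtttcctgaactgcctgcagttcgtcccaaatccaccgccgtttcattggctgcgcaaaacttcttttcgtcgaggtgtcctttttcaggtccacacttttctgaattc

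The motifs searched on both strands of the 250 bases before each start were the E-boxes CAGCTG and CAGGTG, the second read as CACCTG on the other strand, and the Runx core TGTGGT, read as ACCACA. Among 32851 promoters of that length, 13.0% held CAGCTG, 17.2% held CAGGTG and 14.0% held TGTGGT. Cav3 held CAGCTG from position -106 and Myof held TGTGGT from position -114, counted back from the RefSeq start. ACCACA began at -38 in Cdh15 and at -47 in Trim72, but both of these windows lie wholly within annotated exons, downstream of the first base of the loci given next, and are not printed, while the Dock1 window and both Dysf windows held none of the 3 motifs. A match is a run of letters and no evidence of binding.

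In the GENCODE M21 annotation of GRCm38, the build that the submitters' processing notes name as mm10, Cav3 spans chr6:112459505-112472872 and Dysf chr6:84008590-84211060, both on the plus strand. Adam12 (chr7:133883199-134232146, minus strand), Dock1 (chr7:134670654-135173639, plus strand) and Trim72 (chr7:128003949-128011033, plus strand) share a chromosome. Cdh15 spans chr8:122847966-122867397 (plus strand), Jam2 chr16:84774123-84825928 (plus strand), Mymk chr2:27061636-27072179 (minus strand) and Myof chr19:37899036-38043577 (minus strand). Use of strand in the counting is not given in the sources used here. The only overlapping gene that the tables also list is Fam196a, inside Dock1 on the opposite strand, at most 0.139 CPM in any library.

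The study asked how the genotypes differ before and during differentiation. Tests were edgeR's quasi-likelihood fits, with p-values adjusted by Benjamini and Hochberg's method over all 14187 genes and a threshold of 0.05. Of the 10 genes, 3 differed on day 0 and 7, 8 and 7 on days 1, 3 and 6. These counts are not read as a course over time. Day 0 held only 2 WT libraries, and Cav3 and Trim72 had 0 counts there. The day 0 count was 2 whenever a library of that day was left out. The KO-labelled libraries had a mixed pattern: Cdh15 was higher and Jam2 lower on all 4 days, Dysf and Trim72 were higher and Adam12 lower from day 1 on, and Mymk and Cav3 were higher on days 3 and 6. In bulk RNA, fewer cells of a type and less RNA per cell cannot be told apart. On day 0, 2 genes were higher and 1 lower, where 17.5% of all tested genes differed (7.36% higher, 10.1% lower). On day 1, 5 were higher and 2 lower, where 42.2% of all tested genes differed (22.9% higher, 19.2% lower). On day 3, 6 were higher and 2 lower, against 43.2% of all tested genes (24.0% higher, 19.2% lower). On day 6, 5 were higher and 2 lower, against 42.9% of all tested genes (22.0% higher, 20.8% lower). Shares over 10 genes are coarse, and nothing particular to these genes is read from them. The median log2 fold change (log2FC, KO-labelled libraries minus WT) of the members with a fold was 0.05, 0.19, 0.41 and 0.41 on days 0, 1, 3 and 6, and that of all tested genes lay between -0.00 and 0.04.

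**Figure D1:**
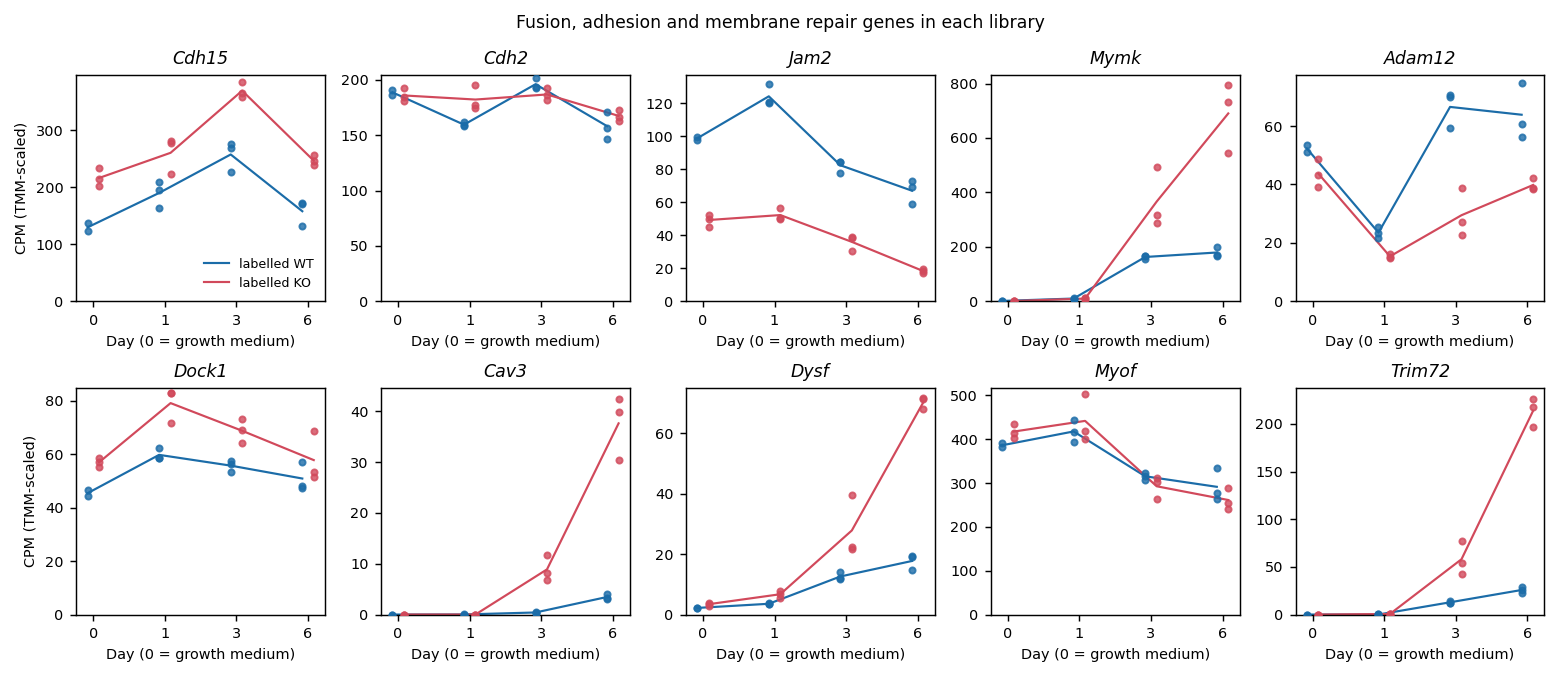
Level of each gene in every library, in CPM scaled by TMM on a linear axis that starts at 0, against the day (0, 1, 3 and 6, drawn evenly spaced). Points are libraries (blue labelled WT, red labelled KO) and lines join group means; on day 6 every red point lies above every blue point for Cdh15, Mymk, Cav3, Dysf and Trim72 and below for Jam2 and Adam12.

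Cdh15 encodes M-cadherin, the calcium-dependent adhesion molecule of myoblasts and satellite cells. On day 0 it stood at 123 and 137 CPM in WT and at 202, 214 and 234 CPM in the KO-labelled libraries. On day 1 the values were 196, 164 and 210.2 CPM in WT and 282, 223 and 278 CPM in the KO-labelled libraries. On day 3 they were 276, 269 and 228 against 385, 366 and 358 CPM, and on day 6 they were 132, 170.5 and 172 against 239, 246 and 256 CPM. In each genotype the level was highest on day 3, and on each of the 4 days the lowest KO-labelled library lay above the highest WT library. The log2FC between genotypes was 0.74 on day 0 (SE 0.12, adjusted p = 0.000134, edgeR), 0.45 on day 1 (SE 0.11, adjusted p = 0.00174), 0.52 on day 3 (SE 0.11, adjusted p = 0.000435), and by day 6 it was 0.64 (SE 0.11, adjusted p = 4.24e-05). Without replicate 2 of the KO-labelled day 1 libraries, the day 1 value was 0.58 (adjusted p = 0.000119). Its change since day 0 did not pass a test of a difference between genotypes on any day (adjusted p = 0.376, 0.476 and 0.801 on days 1, 3 and 6). In order of level, the KO-labelled day 3 libraries came first at 370 ± 13.9 CPM (SD, n = 3), apart from all others. The next 3 groups (KO-labelled on day 1, WT on day 3 and KO-labelled on day 6) had ranges that overlapped each other, and WT on day 0 was lowest.

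Cdh2 encodes N-cadherin, which myoblasts express beside M-cadherin, and it was the steadiest of the 10 genes. Its 23 values lay between 147 and 202 CPM. On day 1, the WT libraries stood at 162, 158 and 159 CPM and those labelled KO at 175, 195 and 177 CPM, without overlap (log2FC 0.19, SE 0.065, adjusted p = 0.0205, edgeR). This call was lost when WT replicate 3 of day 1 was left out (0.19, adjusted p = 0.0507) and held without replicate 2 of the KO-labelled libraries (0.16, adjusted p = 0.0328). It was also lost with library size only (0.15, adjusted p = 0.0964), without a filter (0.17, adjusted p = 0.116), at a mean count of at least 50 (0.15, adjusted p = 0.0705), with only the groups compared (0.17, adjusted p = 0.194), at an adjusted p under 0.01 and with limma on both TPM scales (0.15, adjusted p = 0.212). On days 0, 3 and 6 the log2FC was -0.02, -0.07 and 0.08, none past the threshold (adjusted p = 0.896, 0.408 and 0.329), and on day 6 its sign changed on the TPM scale (-0.04). In WT the level fell by 0.24 from day 0 to day 1 on the log2 scale, rose by 0.30 to day 3 and fell by 0.31 to day 6 (SE 0.072, 0.065 and 0.065, adjusted p = 0.00667, 0.00193 and 0.00269, edgeR). The fall to day 1 did not pass with library size only (-0.18, adjusted p = 0.0699) or on the TPM scales (-0.11, adjusted p = 0.388 and 0.389), and the fall to day 6 did not on log2(TPM + 0.1) (-0.30, adjusted p = 0.05004).

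Per length, the ratio of Cdh15 to Cdh2 within a library shows the balance between the cadherins. In WT the TPM ratio was 1.21 ± 0.11 (SD, n = 2) on day 0 and 2.10 ± 0.25, 2.31 ± 0.23 and 1.76 ± 0.28 (SD, n = 3 each) on days 1, 3 and 6. In the KO-labelled libraries it was 2.04 ± 0.087, 2.54 ± 0.45, 3.48 ± 0.081 and 2.59 ± 0.15 (SD, n = 3 each). The ranges of the genotypes were apart on days 0, 3 and 6 and overlapped on day 1, where the lowest KO-labelled library (2.01, replicate 2) fell within the WT range of 1.83 to 2.32.

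Jam2 encodes JAM-B, a junctional adhesion molecule of the immunoglobulin family whose partner on the apposed cell is JAM-C. Day 0 levels were 99.8 and 97.6 CPM in WT and 45.2, 52.4 and 49.95 CPM in the KO-labelled libraries. On day 1 they were 121, 119.8 and 132 against 49.8, 56.3 and 50.5 CPM, and on day 3 they were 84.6, 78.0 and 84.5 against 30.5, 38.4 and 38.9 CPM. Day 6 levels were 59.0, 69.2 and 72.6 CPM in WT and 19.3, 18.5 and 16.9 CPM in the KO-labelled libraries. Every WT library of any day lay above every KO-labelled library of any day, the closest being 59.0 and 56.3 CPM. The log2FC between genotypes was -1.004 on day 0 (SE 0.10, adjusted p = 9.63e-08, edgeR), -1.25 on day 1 (SE 0.093, adjusted p = 2.88e-10), -1.20 on day 3 (SE 0.094, adjusted p = 5.88e-10), and by day 6 it was -1.88 (SE 0.098, adjusted p = 3.04e-13). On day 6 this is 3.67-fold lower on average. Without replicate 2 of the KO-labelled day 1 libraries, the day 1 value was -1.28.

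The change of Jam2 since growth medium differed between genotypes by day 6 (interaction log2FC -0.87, SE 0.14, adjusted p = 0.000122, edgeR). From day 0 to day 6 Jam2 fell by 1.43 in the KO-labelled libraries (SE 0.098, adjusted p = 7.45e-12) and by 0.56 in WT (SE 0.10, adjusted p = 4.15e-05). WT first rose on day 1 by 0.33 (adjusted p = 0.00833), a call lost without WT replicate 2 of day 0 (0.31, adjusted p = 0.0629). The KO-labelled libraries did not pass on that day (0.09, adjusted p = 0.464), and neither did the difference between the genotypes' changes (adjusted p = 0.362). Jam3, which encodes the partner JAM-C, averaged between 16.4 and 24.0 CPM in the 8 groups and differed between genotypes past the threshold on day 3 and on none of the other 3 days (day 3 log2FC 0.44, SE 0.10, adjusted p = 0.0014, edgeR).

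Mymk encodes myomaker, the multi-pass membrane protein of muscle that is required for the fusion of myoblast membranes. On day 0 it was close to absent, at 1.32 and 0.926 CPM in WT and 0.953, 0.887 and 0.834 CPM in the KO-labelled libraries. On day 1 it stood at 8.88, 8.27 and 12.5 CPM in WT and 10.5, 5.48 and 13.3 CPM in the KO-labelled libraries. The genotypes overlapped on both days. Day 3 values were 165, 156 and 168 CPM in WT and 494, 288 and 317 CPM in the KO-labelled libraries. On day 6 they were 199, 167 and 171 CPM in WT and 543, 733 and 793 CPM in the KO-labelled libraries. On days 3 and 6 every KO-labelled library lay above every WT library, with replicate 1 highest on day 3 and lowest on day 6.

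The genotype log2FC of Mymk was -0.34 on day 0 (SE 0.57, adjusted p = 0.774, edgeR) and -0.03 on day 1 (SE 0.24, adjusted p = 0.948), and the day 1 sign changed without replicate 2 of the KO-labelled libraries (0.29) or WT replicate 3 (0.18). By day 3 the value was 1.17 (SE 0.20, adjusted p = 4.38e-05), and by day 6 it was 1.95 (SE 0.20, adjusted p = 3.87e-08), which is 3.85-fold higher on average. WT levels on days 3 and 6 did not differ beyond the threshold (0.14, SE 0.20, adjusted p = 0.744), whereas in the KO-labelled libraries Mymk rose again between those days (0.91, SE 0.20, adjusted p = 0.000616); the difference between these steps was not tested. From day 0 to day 6 the mean went up 160-fold in WT (adjusted p = 8.03e-14) and 774-fold in the KO-labelled libraries (adjusted p = 2.54e-17). The difference between these changes was 2.28 (SE 0.63, adjusted p = 0.0158), and without WT replicate 1 of day 0 it was 2.02 and did not pass (adjusted p = 0.175). Per length, Mymk was the most abundant of the 10 genes in both genotypes on days 3 and 6, at 267 ± 32.6 TPM in WT and 932 ± 139 TPM in the KO-labelled libraries on day 6 (SD, n = 3 each).

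Adam12 encodes meltrin alpha, a membrane-anchored metalloprotease and disintegrin of fusing myoblasts. It dipped on day 1 in both genotypes and came back. Day 0 values were 51.2 and 53.4 CPM in WT and 39.1, 43.3 and 48.7 CPM in the KO-labelled libraries, apart but with a log2FC that did not pass (-0.26, SE 0.15, adjusted p = 0.278, edgeR). On day 1 they were 25.4, 23.5 and 21.5 CPM in WT and 15.2, 16.2 and 14.7 CPM in the KO-labelled libraries. On day 3 they were 69.9, 70.5 and 59.2 against 38.6, 27.2 and 22.6 CPM, and on day 6 they were 56.2, 60.8 and 74.6 against 42.4, 38.8 and 38.3 CPM. The KO-labelled libraries were below every WT library of the same day throughout. The log2FC was -0.61 on day 1 (SE 0.15, adjusted p = 0.00175), -1.18 on day 3 (SE 0.14, adjusted p = 3.02e-07), and by day 6 it was -0.68 (SE 0.14, adjusted p = 0.000259). The day 1 value was -0.63 without replicate 2 of the KO-labelled libraries.

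Over time Adam12 fell by 1.15 in WT (SE 0.15, adjusted p = 9.14e-07, edgeR) and by 1.51 in the KO-labelled libraries (SE 0.14, adjusted p = 8.48e-09) from day 0 to day 1. Both rose from day 1 to day 3, by 1.502 in WT (adjusted p = 2.80e-08) and by 0.94 in the KO-labelled libraries (adjusted p = 3.22e-05). On day 3 the KO-labelled libraries were still below their day 0 level (-0.57, SE 0.14, adjusted p = 0.00122), and WT had a log2FC of 0.35 against day 0 (SE 0.15), just short of the threshold (adjusted p = 0.0525). The WT value passed in 9 of 15 alternatives, among them DESeq2 (0.37, adjusted p = 0.0375), no filter (0.32, adjusted p = 0.0421) and limma on both TPM scales (0.51 and 0.48, adjusted p = 0.0197 and 0.0161). On day 6 the WT value against day 0 was 0.29 and did not pass (adjusted p = 0.0991), and it passed in 4 of 15 alternatives, the TPM scales among them (0.48 and 0.45, adjusted p = 0.0252 and 0.0205). The difference between the genotypes' changes to day 3 was -0.92 (SE 0.21, adjusted p = 0.00419), and by day 6 it was -0.42 and did not pass (adjusted p = 0.198).

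Dock1 encodes DOCK180, the exchange factor that activates Rac in fusing myoblasts. Its differences were small. The means in WT were 45.4, 59.7, 55.7 and 50.9 CPM on days 0, 1, 3 and 6, and those in the KO-labelled libraries were 56.9, 79.1, 68.8 and 57.8 CPM. The genotypes did not overlap on days 0, 1 and 3 and overlapped on day 6, where the WT libraries ran from 47.2 to 57.2 CPM and those labelled KO from 51.3 to 68.7 CPM. The log2FC was 0.33 on day 0 (SE 0.11, adjusted p = 0.0397, edgeR), 0.41 on day 1 (SE 0.095, adjusted p = 0.00146) and 0.30 by day 3 (SE 0.095, adjusted p = 0.0128). The day 6 value of 0.18 did not pass (SE 0.096, adjusted p = 0.132). Without replicate 2 of the KO-labelled day 1 libraries the day 1 value was 0.39 (adjusted p = 0.00295). The day 0 call was lost when any of its 5 libraries was left out (log2FC 0.29 to 0.36), with library size only (0.27) and on both TPM scales (0.25 and 0.27). The day 3 call was lost without replicate 2 of the KO-labelled libraries (0.26, adjusted p = 0.0606) or WT replicate 3 (0.27, adjusted p = 0.0555), with library size only (0.25, adjusted p = 0.0623) and on both TPM scales, where the value was 0.13 and 0.14 (adjusted p = 0.455 and 0.457, limma). The day 6 value passed without replicate 3 of the KO-labelled libraries (0.26, adjusted p = 0.0481) or WT replicate 3 (0.29, adjusted p = 0.0261).

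**Figure D2:**
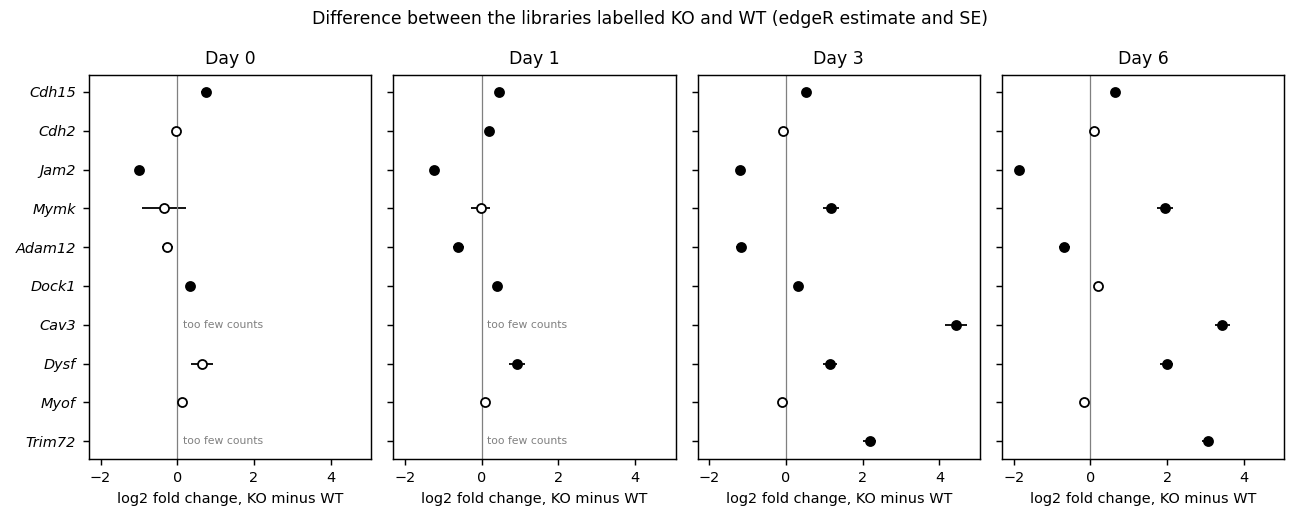
Log2 fold change between the KO-labelled libraries and WT on each day (edgeR estimate, bars are 1 SE), with filled circles for an adjusted p under 0.05. Jam2 lies left of 0 on every day, from -1.004 to -1.88, and the values of Mymk, Cav3, Dysf and Trim72 lie right of 0 on days 3 and 6; "too few counts" marks genes with no more than 3 counts per library in at least 1 genotype.

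Cav3 encodes caveolin-3, the caveolin of muscle, which forms caveolae in the myotube membrane. It had 0 counts in all 5 libraries of day 0 and in all 3 KO-labelled day 1 libraries, and 1 count in 1 of the 3 WT libraries of day 1. The floor of 3 counts per library corresponds to 0.135 CPM in WT and 0.138 CPM in the KO-labelled libraries on day 0, and floors and counting intervals cover counting error only, since reads carried no molecular identifiers. On day 3 the WT libraries stood at 0.348, 0.563 and 0.304 CPM and those labelled KO at 11.6, 8.26 and 6.78 CPM. On day 6 they stood at 3.95, 3.28 and 3.15 CPM in WT and at 30.5, 39.9 and 42.5 CPM in the KO-labelled libraries. The lowest KO-labelled library lay above the highest WT library on both days, and even the KO-labelled day 3 libraries exceeded WT on day 6. The log2FC was 4.44 on day 3 (SE 0.28, adjusted p = 6.10e-10, edgeR), and by day 6 it was 3.44 (SE 0.20, adjusted p = 1.11e-10), or 10.9-fold higher on average on day 6. Against the floor, Cav3 was at least 25.6-fold higher on day 6 than on day 0 in WT and at least 272-fold higher in the KO-labelled libraries.

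Cav1 encodes caveolin-1, the caveolin of many other cell types. It averaged 386 CPM in WT and 376 CPM in the KO-labelled libraries on day 6 (log2FC -0.04, SE 0.094, adjusted p = 0.764, edgeR). Per length, the ratio of Cav3 to Cav1 was 0.0223 ± 0.0029 in WT and 0.251 ± 0.051 in the KO-labelled libraries on day 6 (SD, n = 3 each), with ranges of 0.0202 to 0.0256 and 0.193 to 0.284.

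Dysf encodes dysferlin, a calcium-binding ferlin of the muscle membrane that takes part in resealing. On day 0 it stood at 2.29 and 2.08 CPM in WT and 2.68, 3.64 and 3.94 CPM in the KO-labelled libraries. On day 1 the values were 3.53, 3.48 and 3.67 against 5.55, 6.87 and 7.74 CPM. On day 3 they were 11.7, 12.004 and 14.1 against 39.6, 22.2 and 21.6 CPM, and on day 6 they were 18.9, 14.9 and 19.4 against 68.1, 71.2 and 71.5 CPM. The KO-labelled libraries were above every WT library on each day, and on day 3 replicate 1 was set apart from its replicates on the high side. The day 0 log2FC of 0.64 (SE 0.29, adjusted p = 0.141, edgeR) did not pass, but on log2(TPM + 0.1) it did (0.69, adjusted p = 0.0299, limma). The later values were 0.92 (SE 0.21, adjusted p = 0.00139), 1.14 (SE 0.17, adjusted p = 1.05e-05) and 1.99 (SE 0.17, adjusted p = 1.33e-09) on days 1, 3 and 6. Without replicate 2 of the KO-labelled day 1 libraries the day 1 value was 0.92, and the day 3 value ranged from 0.80 to 1.30 when each library was left out in turn.

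From day 0 to day 6 Dysf rose 8.10-fold in WT (adjusted p = 4.39e-10, edgeR) and 20.5-fold in the KO-labelled libraries (adjusted p = 5.49e-15). The difference between these changes on the log2 scale was 1.35 (SE 0.34, adjusted p = 0.00869), and without WT replicate 1 of day 0 it was 1.29 and did not pass (adjusted p = 0.0716). The first step in WT, from day 0 to day 1, had a log2FC of 0.70 (adjusted p = 0.0401), a call that was lost whichever of its 5 libraries was left out (0.64 to 0.76).

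Myof encodes myoferlin, the ferlin of myoblasts, which is known for a role in their fusion. It was abundant from the start and went the other way in time. Day 0 levels were 390.4 and 382 CPM in WT and 435, 403 and 415 CPM in the KO-labelled libraries, and day 6 levels were 277, 264 and 334 CPM in WT and 289, 255 and 239.9 CPM in the KO-labelled libraries. The genotypes were apart on day 0 and overlapped on days 1, 3 and 6. Between genotypes the log2FC was 0.11, 0.08, -0.11 and -0.16 on days 0, 1, 3 and 6 (SE 0.095 to 0.11), none past the threshold (adjusted p = 0.555, 0.520, 0.378 and 0.195, edgeR), and the day 1 value was -0.00 without replicate 2 of the KO-labelled libraries. Between day 0 and day 6 Myof fell by 0.41 in WT (SE 0.11, adjusted p = 0.00183) and by 0.68 in the KO-labelled libraries (SE 0.095, adjusted p = 1.19e-06). The WT fall did not pass on the TPM scales (-0.22 and -0.23, adjusted p = 0.193 and 0.195, limma).

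The ratio of Dysf to Myof per length puts the 2 ferlins side by side. On day 0 it was 0.0072 ± 0.00045 in WT (SD, n = 2) and 0.0119 ± 0.0019 in the KO-labelled libraries (SD, n = 3). On day 6 the WT libraries had 0.109, 0.0922 and 0.0887, and those labelled KO had 0.344, 0.437 and 0.515. The ratio was thus higher on day 6 than on day 0 in every library of both genotypes, and on day 6 each KO-labelled library lay above each WT library. Even there myoferlin mRNA exceeded dysferlin mRNA, by 2.3-fold in the KO-labelled libraries and by 10.4-fold in WT, taken from the mean ratios.

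**Figure D3:**
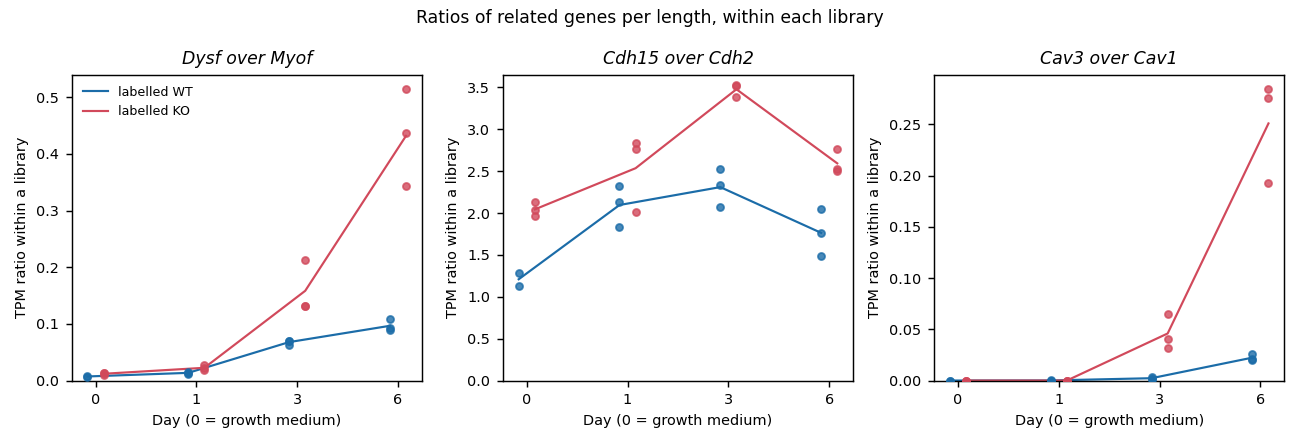
Ratio of TPM between related genes within each library (points) and group means (lines), on linear axes that start at 0, against the day (drawn evenly spaced). Dysf over Myof and Cav3 over Cav1 reach 0.432 and 0.251 on average in the KO-labelled libraries on day 6 against 0.0966 and 0.0223 in WT, and Cdh15 over Cdh2 is highest on day 3 in both genotypes.

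Trim72 encodes MG53, a tripartite-motif protein of striated muscle that gathers vesicles at membrane injuries. It had 0 counts in all 5 day 0 libraries. On day 1 the KO-labelled libraries had 12, 11 and 16 counts and those of WT had 1, 0 and 1, a ratio of 20.1 of the scaled sums with a 95% counting interval of 5.21 to 172 (adjusted p = 0.000879, edgeR). The call held without replicate 2 of the KO-labelled libraries (adjusted p = 0.00428). On day 3 Trim72 stood at 12.1, 13.9 and 12.5 CPM in WT and 77.2, 42.3 and 54.6 CPM in the KO-labelled libraries. On day 6 it stood at 29.1, 22.6 and 25.6 CPM in WT and 197, 218 and 227 CPM in the KO-labelled libraries. On days 1, 3 and 6 the groups did not overlap, and the KO-labelled day 3 libraries were all above WT on day 6. The log2FC was 2.18 on day 3 (SE 0.16, adjusted p = 1.03e-09, edgeR), and by day 6 it was 3.05 (SE 0.16, adjusted p = 2.33e-12), or 8.30-fold higher on average on day 6. Against the floor of 3 counts per library, day 6 was at least 190.4-fold above day 0 in WT and at least 1545-fold in the KO-labelled libraries.

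Per length, Trim72 held rank 6 among the 10 genes in WT on day 6 (19.6 ± 3.28 TPM) and rank 2 in the KO-labelled libraries (148 ± 4.01 TPM, SD, n = 3 each). There it was level with Cdh15 (147 ± 3.27 TPM). On the same day Jam2 held rank 5 in WT (26.5 ± 4.30 TPM) and rank 10 in the KO-labelled libraries (6.73 ± 0.62 TPM, SD, n = 3 each).

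Cav3, Trim72, Dysf and Mymk were picked here for the largest positive log2FC between genotypes on days 3 and 6. Their direction therefore follows from the choice. The sum of the 8 myogenic markers was also higher in the KO-labelled libraries than in WT on those days, whereas Jam2 and Adam12 were lower. The 4 genes and the sum did not go together in every pair of groups. In WT the sum was lower on day 6 than on day 3 while Cav3 and Trim72 rose. The 8 markers summed to between 2670 and 3080 TPM in the WT libraries of day 6 and to between 11256 and 12714 TPM in those labelled KO, and on day 3 to between 3140 and 3242 TPM in WT and to between 4445 and 7121 TPM in those labelled KO. Acta1, skeletal muscle actin, made up most of the sum in the KO-labelled libraries of day 6 (7838 to 9018 TPM, against 1214 to 1525 TPM in WT). Without Acta1 the sum was 1386 to 1592 TPM in WT and 3418 to 3695 TPM in the KO-labelled libraries on day 6, and 1588 to 1637 against 2280 to 3195 TPM on day 3. The markers did not all go one way: on both days Des, Myog, Acta1 and Ckm were higher in every KO-labelled library than in any WT library, and Myf5 and Pax7 were lower in every one. Myod1 was apart on the higher side on day 3 and overlapped on day 6, and Myh3 did the reverse. The part of overall differentiation in these 4 differences was not tested. The 5 macrophage markers summed to between 5.47 and 9.31 TPM in WT and between 15.5 and 17.2 TPM in the KO-labelled libraries on day 6. Adgre1 was listed at 0 in every library, Ptprc, Lyz2 and Csf1r reached at most 0.01, 0.33 and 1.41 TPM, and Cd68 with up to 17.0 TPM made up most of the sum on day 6. On that day 2 of the 5 markers averaged at least 1 TPM in WT and 1 in the KO-labelled libraries. Their part in the 4 differences was not tested. Among neural and glial markers, Sox10 and Gfap reached at most 0.05 and 0.34 TPM, and Tubb3, also found outside neurons, ranged from 22.8 to 150.0 TPM over the libraries.

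Each time point was also compared with growth medium within a genotype. In WT, 5 of the 10 genes rose and 2 fell by day 1, where 27.1% of all tested genes rose and 27.6% fell. By day 3, 6 rose and 2 fell (29.2% and 29.0% of all genes), and by day 6, 5 rose and 3 fell (32.6% and 31.1%). In the KO-labelled libraries, 5 rose and 1 fell by day 1 (27.2% and 25.2% of all genes), 6 rose and 3 fell by day 3 (30.4% and 27.2%), and 4 rose and 3 fell by day 6 (36.6% and 33.5%). Mymk, Dysf, Cav3 and Trim72 were the 4 that rose by day 3 and again stood above day 0 on day 6 in both genotypes. The WT count for day 3 was 5 in place of 8 without either WT library of day 0, since the calls of Dock1 (0.33 and 0.26), Jam2 (-0.25 and -0.28) and Myof (-0.28 and -0.31, without replicate 1 and replicate 2) were lost. The smaller calls on day 6 were also fragile. That of Cdh15 in WT (0.28, adjusted p = 0.0475, edgeR) was lost without either WT library of day 0 or replicate 2 or 3 of day 6 (0.20 to 0.36), and that of Cdh2 in WT (-0.25) without replicate 2 of day 6 (-0.15). In the KO-labelled libraries, that of Cdh2 (-0.15, adjusted p = 0.043) was lost when any library but replicate 2 of day 6 was left out (-0.16 to -0.13). Before that, the day 1 call of Cdh15 (0.27) was lost without replicate 1 or 2 of day 0 or replicate 1 or 3 of day 1 (0.21 to 0.26), and the day 3 call of Dock1 (0.27) without replicate 2 of either day (0.25 and 0.23). Without replicate 2 of day 1 in the KO-labelled libraries, the 10 genes still held 6 calls on day 1. On both TPM scales with limma, the calls of Cdh2 on day 6 (-0.08 in WT and -0.04 in the KO-labelled libraries), of Jam2 and Myof in WT on day 3 (-0.08 and -0.11) and of Dock1 in the KO-labelled libraries on day 3 (adjusted p = 0.0564 and 0.0575) were lost. On the same scales, calls were gained for Adam12 in WT on days 3 and 6, with the values given above, and for Cdh15 in the KO-labelled libraries on day 6 (0.31 and 0.304, adjusted p = 0.0221 and 0.0218).

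Steps between time points were compared in the same way. From day 1 to day 3, 7 of the 10 genes rose and 2 fell in WT, where 11.0% of all tested genes rose and 8.68% fell, and 6 rose and 2 fell in the KO-labelled libraries (15.5% and 11.2% of all genes). Mymk rose 16.4-fold in WT and 37.6-fold in the KO-labelled libraries (adjusted p = 1.01e-11 and 5.85e-14, edgeR). Dysf rose 3.54-fold and 4.14-fold (adjusted p = 4.78e-07 and 8.04e-09). Trim72 went from 2 to 887 counts in WT, a ratio of 453 (95% counting interval 125 to 3744), and rose 101-fold in the KO-labelled libraries. Cav3 went from 1 to 28 counts in WT, a ratio of 28.6 (95% counting interval 4.7 to 1169), and was at least 67.6-fold higher in the KO-labelled libraries. Jam2 and Myof fell in both genotypes in this step, by 0.59 and 0.41 in WT and by 0.54 and 0.59 in the KO-labelled libraries on the log2 scale, but the Myof fall in WT did not pass on the TPM scales (-0.36, adjusted p = 0.0679 and 0.0718, limma).

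From day 3 to day 6, 2 genes rose and 3 fell in WT (4.87% and 4.92% of all tested genes): Cav3 rose 8.54-fold and Trim72 2.01-fold (adjusted p = 8.62e-06 and 0.000326, edgeR), and Cdh15, Cdh2 and Jam2 fell. The Jam2 fall of 0.30 was lost when any of 5 of its 6 libraries was left out (adjusted p = 0.0572 to 0.242), that is all but WT replicate 3 of day 6. In the KO-labelled libraries, 5 rose and 3 fell (20.2% and 21.2%): Cav3 4.23-fold, Trim72 3.68-fold, Dysf 2.53-fold, Mymk 1.88-fold and Adam12 1.35-fold, with falls of Jam2, Cdh15 and Dock1. The Adam12 call (adjusted p = 0.0145) was lost without replicate 2 or 3 of day 3 or replicate 1 of day 6, and the Dock1 call (-0.25, adjusted p = 0.0384) without replicate 1 or 2 of day 3 or replicate 2 or 3 of day 6. Cdh15 fell in both genotypes, by 0.71 in WT and by 0.58 in the KO-labelled libraries.

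An interaction term tested whether genotype altered the change since day 0. On day 1 none of the 10 genes passed in edgeR, where 2.64% of all tested genes had a higher and 1.31% a lower change in the KO-labelled libraries. At an unadjusted p under 0.05 there was 1 gene, Cdh2 (interaction 0.21, adjusted p = 0.241), and the number that passed was 0 with DESeq2 and, apart from Cav3 and Trim72, 0 with limma on log2(TPM + 0.1). On day 3 Adam12 alone passed in edgeR, on the lower side (6.65% of all tested genes higher, 4.06% lower), and Mymk, which missed in edgeR (1.51, adjusted p = 0.131), passed on the higher side with DESeq2, without a filter and on both TPM scales (1.17 to 1.48). On day 6 Mymk and Dysf passed on the higher and Jam2 on the lower side (7.54% higher, 5.42% lower). For Cav3 and Trim72 no interaction is given, since both genotypes had 0 counts on day 0 and it would only repeat the genotype difference of the later day. All interactions share the day 0 libraries of both genotypes, 2 of them WT.

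The genes most like each member were found by Pearson's r of log2 CPM over the 23 libraries among 11409 genes. These values describe libraries that share genotype, day and differentiation state, and carry no test. Mymk was closest to Tnni1, the slow skeletal troponin I (r = 0.997), followed by Cbfa2t3 and Atp2a1, the calcium pump of fast fibres. Trim72 was closest to Myoz2 (0.995), Cox6a2 and Cacna1s, Dysf to Mb, which encodes myoglobin (0.987), Usp2 and Srl, and Cav3 to Abra (0.983), Myl4 and Adprhl1. Among themselves Dysf and Trim72 had r = 0.971, and Mymk and Trim72 0.965. Jam2 was closest to Il2rg (0.961), Myof to Acaca (0.962), Dock1 to Pcdh19 (0.930) and Adam12 to Crim1 (0.920). The adhesion cadherins had no close match, with highest values of 0.856 for Cdh15 (Msc) and 0.857 for Cdh2 (Slc38a2).

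Around the 10 genes, 79 other genes of the same processes were listed in 6 roles, and 70 passed the filter on low counts. Between genotypes 15 of them differed on day 0 (12 higher and 3 lower in the KO-labelled libraries), 27 on day 1 (15 and 12), 28 on day 3 (15 and 13) and 37 on day 6 (19 and 18), read against the shares of all genes given above. Their median log2FC was between -0.01 and 0.06 on the 4 days. On day 6 the caveola genes leaned higher, at 7 of 11 with 1 lower (median 0.43), and the repair partners leaned lower, at 7 of 18 with 1 higher (median -0.16), where 22.0% of all tested genes were higher and 20.8% lower. The median of all tested genes was 0.00 on that day. These roles are named for their counts, and the lists were chosen with earlier results of these data known. Nothing particular to these roles is read from the leans.

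Among caveola genes, Cavin2, which encodes a coat protein of caveolae, averaged 35.9 ± 2.84 CPM in WT and 216 ± 14.8 CPM in the KO-labelled libraries on day 6 (SD, n = 3 each). Its log2FC was already 1.04 on day 0 and reached 2.59 on day 6 (SE 0.10, adjusted p = 2.68e-15, edgeR). Cavin4 (the muscle cavin) and Bin1 (amphiphysin 2, which shapes transverse tubules), both chosen after their values were seen, differed by 1.78 and 0.95 (adjusted p = 7.76e-12 and 8.83e-10). Cavin3 was lower by day 6 (-0.44, SE 0.13, adjusted p = 0.00736), and Cavin1, the most abundant of the role, did not pass (0.10, adjusted p = 0.293).

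Among fusion surface proteins on day 6, 4 of 13 were higher and 6 lower, where 22.0% of all tested genes were higher and 20.8% lower. Mymx, which encodes myomixer, the small partner of myomaker, averaged 17.7 ± 5.45 CPM in WT and 46.4 ± 6.23 CPM in the KO-labelled libraries (SD, n = 3 each, log2FC 1.39, SE 0.23, adjusted p = 3.49e-05, edgeR). On day 3 its log2FC was 0.56 and did not pass (adjusted p = 0.0602). Tmem182, a muscle membrane protein, was higher by 2.40 (SE 0.17, adjusted p = 4.63e-11). Stab1, which encodes the receptor stabilin-1, was lower by 1.85 (log2FC -1.85, SE 0.26, adjusted p = 4.52e-06) at 2.19 against 7.92 CPM. Cd9, a tetraspanin and the most abundant of the role, had a log2FC of -0.21 (adjusted p = 0.0167).

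Of the 8 tested cadherin and catenin genes, 3 were higher and 1 lower on day 6 (22.0% and 20.8% of all tested genes). Jup, which encodes plakoglobin, was higher (0.61, SE 0.11, adjusted p = 8.13e-05, edgeR), and Cdh11 was lower (-1.49, SE 0.31, adjusted p = 0.000469) at 0.929 against 2.62 CPM. Ctnnb1, which encodes beta-catenin, did not pass on day 6 (0.01, adjusted p = 0.935). Of 20 genes of Rac and actin remodelling, 4 were higher and 3 lower, neither above the share of all tested genes (22.0% and 20.8%). Dnm2, which encodes dynamin-2, was higher (0.87, SE 0.090, adjusted p = 3.66e-08) and Elmo1, a partner of DOCK180, was lower (-0.98, SE 0.32, adjusted p = 0.0169) at 1.06 against 2.10 CPM. Cdc42, the most abundant of this role, averaged 377 CPM in the KO-labelled libraries and 417 CPM in WT on day 6 and did not pass (-0.15, adjusted p = 0.0507).

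**Figure D4:**
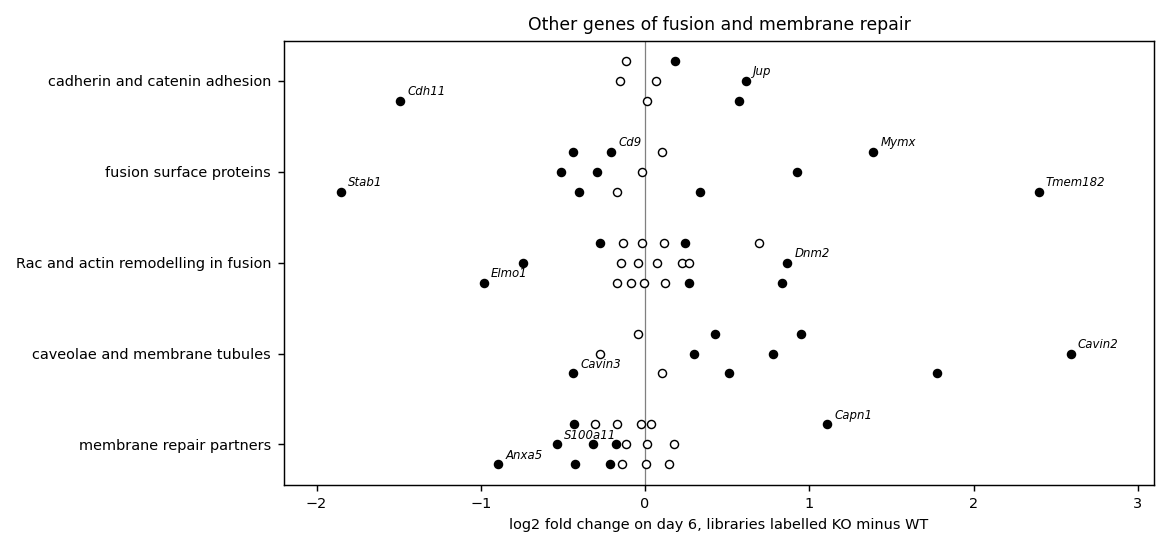
Log2 fold change between the KO-labelled libraries and WT on day 6 for the 70 other genes tested, by role, with filled circles for an adjusted p under 0.05 (edgeR) and vertical offsets only to separate points. Of 11 caveola genes, 7 are filled right of 0 and 1 left of 0. Of 18 repair partners, 7 are filled left of 0 and 1 right of 0. Among all tested genes 22.0% were higher and 20.8% lower. Names mark genes chosen by rule.

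Among repair partners, Anxa5, which encodes the calcium-dependent membrane-binding annexin A5, was lower on all 4 days, with a day 6 log2FC of -0.89 (SE 0.066, adjusted p = 1.36e-10, edgeR) and means of 247 ± 6.74 against 459 ± 48.2 CPM (SD, n = 3 each). S100a11, the most abundant of the role, was also lower on day 6 (-0.54, SE 0.11, adjusted p = 0.000507). Capn1, which encodes the large subunit of calpain-1, was the 1 gene of the role that was higher (1.11, SE 0.11, adjusted p = 1.18e-08). Capn3, the muscle calpain, rose 5.18-fold in WT and 4.77-fold in the KO-labelled libraries from day 0 to day 6 and did not differ between genotypes beyond the threshold (0.04, SE 0.12, adjusted p = 0.844). Of the other ferlins, Otof, Fer1l4 and Fer1l5 were too low to test, with at most 0, 1 and 10 counts in a library, and Fer1l6 was not analysed here. Ano5, a repair-linked membrane protein of muscle, reached at most 3 counts.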

How the data were processed

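Poly(A) RNA of C2C12 cells was sequenced in 23 libraries of 8 groups. The deposited table holds estimated counts per gene, all whole numbers, and a second deposited table holds TPM. Per the submitters' processing notes, the tools included Bowtie2 and RSEM with mm10, but the annotation and the use of strand are not given in the sources used here. Of the deposited values, 790 have a positive TPM beside a zero count, and 108 the reverse, so the tables differ slightly in what they assign.

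From the counts, genes were kept by filterByExpr (minimum count 10, minimum total 15), scaled by TMM and tested with edgeR's quasi-likelihood test over all 8 groups together, with Benjamini-Hochberg adjustment over all genes tested and a threshold of 0.05. The contrasts numbered 17: genotype on each day, day against day 0, steps between days and the interaction of both. log2 CPM used a prior count of 2. R 4.3.3, edgeR 4.0.16, limma 3.58.1 and DESeq2 1.42.0 were used, and the fit was tested on simulated data. A floor of 3 counts per library stands for a group at 0, and counting intervals are exact at 95%. Loci came from GENCODE M21 of GRCm38.

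The alternatives were RLE scaling, library size only, no filter (20467 genes), a mean count of at least 50 (11435 genes), DESeq2, limma on log2(TPM + 1) and log2(TPM + 0.1) with a mean of at least 0.5 TPM (12959 genes), only the groups compared, the replicate number as a block, an adjusted p under 0.01, and each library left out in turn. The 10 genes and the lists were chosen with earlier results of these data known. Beside the 10 genes, each role's most abundant gene (mean TPM) and those with the highest and lowest day 6 log2FC past the threshold were named, with Mymx, Cav1, Capn3, Ano5, Jam3 and Cdh11 whatever their values, and for each of the 10 the 3 genes with the highest Pearson's r among named genes of at least 1 CPM. Totals of 22197606 to 23684077 counts per library set the counting error, and the spread between replicates adds to it.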

Additional observations from a re-analysis of the deposited data

Results flagged for a closer look

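In edgeR's interaction test, the change from day 0 differed between genotypes for 1 gene on day 3 and 3 genes on day 6. An interaction is given for 8 of the 10 genes, all but Cav3 and Trim72. Among all tested genes, 6.65% passed on the higher and 4.06% on the lower side on day 3. On day 6 these shares were 7.54% and 5.42%. From day 0 to day 3 Adam12 stood lower relative to day 0 in the KO-labelled libraries than in WT (interaction log2FC -0.92, adjusted p = 0.00419). From day 0 to day 6 the interaction log2FC of Jam2 was -0.87 (adjusted p = 0.000122), the KO-labelled libraries falling further. Over the same interval it was 2.28 for Mymk (adjusted p = 0.0158) and 1.35 for Dysf (adjusted p = 0.00869), with the larger rise in the KO-labelled libraries. Of these 4, the Mymk and Dysf calls were lost without WT replicate 1 of day 0 (2.02 and 1.29).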

How the results depend on the processing

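Between genotypes, all 63 recounts of the genes that passed stayed within 1.5 times the count reported, and 552 of 584 recomputed single values kept direction and side of the threshold (24 lost the call, 3 gained it and 5 changed sign). Over time the numbers were 153 of 157 and 1381 of 1524 (104 lost, 22 gained, 17 changed sign), and for interactions 55 of 63 and 490 of 504 (3, 4 and 7). Causes were not tested. The limit of 1.5 times does not flag small losses. Between genotypes, the day 0 count was 2 in place of 3 whenever a library of that day was left out. The WT count for day 3 against day 0 was 5 in place of 8 at an adjusted p under 0.01 and 5 to 8 when a library was left out, and the WT count for day 6 against day 3 was 3 in place of 5 on log2(TPM + 0.1). Interaction counts went from 0 to 1 on day 1 (log2(TPM + 0.1)), from 1 to 2 (DESeq2, no filter) or 4 (both TPM scales) on day 3, and from 3 to 5 (both TPM scales) on day 6, where leaving out a library gave 1 to 3, the 1 without WT replicate 1 of day 0. The TPM counts include Trim72 or Cav3, which were at 0 on day 0, so that their interaction only repeats the genotype difference.

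None of the values that changed sign passed the threshold. Between genotypes they were Mymk on day 1 (0.29 without KO replicate 2 and 0.18 without WT replicate 3, leave-one-out range -0.32 to 0.29), Myof on day 1 (-0.0016 without KO replicate 2, leave-one-out range to 0.152) and Cdh2 on day 6 (-0.0417 and -0.0422 on the TPM scales). For Cdh2 in the KO-labelled libraries, day 1 against day 0 gave 0.0583 (library size only), 0.12 and 0.12 (both TPM scales) and 0.0009 (without day 1 replicate 1, leave-one-out range -0.0657 to 0.0009). Its day 3 against day 0 gave -0.021 and -0.0211 (DESeq2 and RLE), -0.0048 (mean count of at least 50), -0.0469 (no filter), -0.0082 (only the groups compared), and -0.0035 and -0.0149 without replicate 1 of day 0 or day 3, with a leave-one-out range of -0.0149 to 0.0317. Its day 3 against day 1 gave -0.0327 and -0.0331 (both TPM scales) and -0.0009 (only the groups compared). The others were Myof in the KO-labelled libraries on day 1 against day 0 (-0.0075 without day 1 replicate 2, leave-one-out range to 0.146), Dock1 there on day 6 against day 0 (-0.12 without day 6 replicate 1, leave-one-out range to 0.0997) and Adam12 in WT on day 6 against day 3 (0.0251 without day 6 replicate 1, leave-one-out range from -0.19). The Myof interaction on day 1 was 0.024, 0.0329, 0.0042 and 0.0375 without KO replicate 1 of day 0, KO replicates 1 and 3 of day 1 and WT replicate 1 of day 1. The Dock1 interaction on day 3 was 0.0086, 0.023 and 0.0121 without KO replicate 1 of day 0, KO replicate 3 of day 3 and WT replicate 2 of day 0 (leave-one-out range -0.0687 to 0.023).

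No pairing by replicate number was seen, since deviations of same-numbered libraries correlated at -0.0071 on average over 38 pairs (-0.24 to 0.12). A weak pairing, or one limited to some genes, could go unseen in this measure. With the replicate number as a block, 2, 7, 8 and 7 of the 10 genes passed between genotypes on days 0, 1, 3 and 6, the Dock1 call of day 0 being lost (0.33, adjusted p = 0.0503, edgeR). The median log2FC of all genes over time was at most 0.0472 under TMM, 0.126 with library size only and 0.149 on log2(TPM + 1), and between genotypes on day 6 it was 0.0037 under TMM and -0.105 on log2(TPM + 1). Depth limits Cav3 and Trim72 on days 0 and 1, where a floor of 3 counts is 0.128 to 0.138 CPM.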
